A study of Mus musculus with 15 samples.

Results

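The promoters of kinase cascade and protein phosphatase genes were examined in promoter-capture Hi-C of neuronal nuclei sorted from mouse hippocampus. They were taken by gene name, as every promoter of the score table whose symbol begins with Mapk, Map2k, Map3k, Map4k, Camk, Prk, Pik3, Dusp or Ppp followed by a digit from 1 to 6. This gave 74 names, and 71 remained after Ppp1r9b, Camk1d and Camk4 were set aside, out of 4429 promoters in the table. The 71 promoters held 651 of 36353 listings, where a listing is 1 promoter paired with 1 genomic fragment that it contacted. The symbols place the promoters in these families, and the rule itself uses names and no score. The name rule also brings in a few genes that are no kinase or phosphatase, such as Prkcdbp and Prkrip1.

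Promoter-capture Hi-C digests and religates cross-linked chromatin (HindIII was the enzyme) and enriches the ligation products of chosen promoters with biotinylated RNA baits. The mice were ArcCreERT2 crossed to a floxed-stop eYFP reporter (R26R), labelled +/+ in all groups, so that the Arc promoter drives a tamoxifen-dependent Cre and cells with Arc activity near the 4-hydroxytamoxifen dose become eYFP positive. The dose was given 1 h before contextual fear conditioning, and nuclei were sorted with NeuN and GFP antibodies. Tissue was collected 1.5 to 2 h after conditioning, or 5 days after it with or without a return to the conditioning room. The sample titles give 4 groups, Basal (3 libraries), Early (4), Late (4) and Reactivated (4). The labels tie neither these names to the collection intervals nor Basal to a treatment, the treatment label of every library, Reactivated included, reads as without recall, against the protocol, and the sex and age of the mice were not given in the sources used here. Each group's tissue was pooled from 10 to 12 mice and 10000 nuclei were used, so a library is a pool and not an animal. The table holds no expression values, so the neuronal label could not be checked against marker genes.

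The deposited values are whole-number interaction scores from 2 to 13683, and an empty cell has no score. A listing with a score of 5 or more in a library is called an interaction here. Reactivated libraries 1 and 2 listed 32 and 335 fragments, while the other 13 libraries listed between 1500 and 10514. Basal library 3 had a median score of 13, against 302 and 195 in the other Basal libraries. Several libraries of a group shared much of their fragment lists, from 48.3% of the smaller list (Late libraries 1 and 2) to 100% (Reactivated libraries 1 and 2). Joining those left 9 library sets (Basal 2, Early 3, Late 2, Reactivated 2). Whether libraries of a set came from separate mice is not stated, so p-values over libraries measure only the spread between them, which may be technical. The comparisons between groups are also given without the sparse or low-scoring libraries where those change the outcome.

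The MAP kinase cascade passes a signal through successive kinases, from MAP kinase kinase kinase kinases down to the MAP kinases ERK, JNK and p38, and dual-specificity phosphatases (Dusp) remove the activating phosphates again. In hippocampal neurons calcium entry activates the calmodulin-dependent kinases, cyclic AMP activates protein kinase A (PKA), and both feed the phosphorylation of synaptic proteins and of the transcription factor CREB that memory formation draws on. The protein phosphatases PP1, PP2A and calcineurin reverse many of these phosphorylations and are known for their part in synaptic depression and in limiting memory storage.

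Promoter windows from RefSeq (GRCm38.p6, 250 bases before to 50 after the gene start) were matched by symbol for 56 of the 71 genes, which have 76 windows among them. The scores are on mm9, so the coordinates of the windows and of the fragments cannot be compared. Shown here are the 250 bases before the start, 5′ to 3′ on the gene's strand, of Ppp4r2 and Ppp1r12c, whose fragments were scored in the most libraries, of Ppp6r1, which shared a fragment with Ppp1r12c, and of Dusp7, whose most recurrent fragment had no Basal score. Capitals mark the GC box GGGCGG and the cAMP response element TGACGTCA, on either strand. They lie at chr6:100833388-100833637 on the plus strand, chr7:4501681-4501930 on the minus strand, chr7:4658951-4659200 on the minus strand and chr9:106368382-106368631 on the plus strand, in that order.
Ppp4r2: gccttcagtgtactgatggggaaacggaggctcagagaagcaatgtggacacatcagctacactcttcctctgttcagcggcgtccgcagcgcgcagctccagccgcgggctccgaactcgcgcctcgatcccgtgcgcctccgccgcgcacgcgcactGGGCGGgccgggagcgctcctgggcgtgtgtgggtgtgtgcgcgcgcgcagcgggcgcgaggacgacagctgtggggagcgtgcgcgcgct
Ppp1r12c: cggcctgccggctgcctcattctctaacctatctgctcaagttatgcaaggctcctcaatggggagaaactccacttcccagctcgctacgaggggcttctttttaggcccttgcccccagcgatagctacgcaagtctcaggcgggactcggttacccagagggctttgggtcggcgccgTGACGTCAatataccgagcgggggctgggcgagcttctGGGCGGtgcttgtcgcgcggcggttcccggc
Ppp6r1: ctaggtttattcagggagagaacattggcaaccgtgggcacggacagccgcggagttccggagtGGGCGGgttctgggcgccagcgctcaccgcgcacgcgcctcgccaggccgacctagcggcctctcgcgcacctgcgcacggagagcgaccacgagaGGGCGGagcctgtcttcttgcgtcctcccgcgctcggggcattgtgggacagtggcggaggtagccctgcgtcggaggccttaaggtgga
Dusp7: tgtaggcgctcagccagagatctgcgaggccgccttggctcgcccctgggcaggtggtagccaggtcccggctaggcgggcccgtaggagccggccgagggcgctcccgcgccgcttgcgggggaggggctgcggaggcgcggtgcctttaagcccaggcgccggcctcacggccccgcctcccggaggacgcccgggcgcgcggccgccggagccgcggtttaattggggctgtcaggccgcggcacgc
The cAMP response element of Ppp1r12c begins 69 bases before the start. Among the 76 windows of 300 bases, 2 held TGACGTCA on either strand (Mapk10 and Ppp1r12c, 2.63%), against 2.90% of 4279 windows of the other promoters in the table and 1.79% of all 32851 RefSeq windows. A GC box was present in 52 of the 76 windows (68.4%), against 59.4% of the windows of the other promoters and 35.7% of all windows. The HindIII site AAGCTT was present in 3 windows (Ppp1r14c, Prkacb and Prkg1, 3.95%), against 6.03% and 7.45%. None of these motifs contains another, and a match describes letters only.

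The kinase and phosphatase promoters contacted somewhat more fragments than the other promoters and repeated them about as seldom. They had a median of 8 listed fragments against 6 for the 4358 other promoters (means 9.17 and 8.19), from 1 fragment in 6 genes to 28 in Ppp1r12a, which encodes the myosin-binding subunit of PP1. Of the members, 36.6% had 10 or more fragments, against 30.8% of the others. Of the 651 listings, 215 were scored in a single library (33.0%), against 32.7% of the other listings. The 95% exact binomial interval of the member share, 29.4 to 36.8%, covers counting error only. It treats the listings as independent, which those of the same promoter or library set need not be. Another 191 were scored in both libraries of 1 set, so 62.4% came from 1 library set, against 65.6% of the others. The fragments clustered along the chromosome, with 79.7% of them within 1 Mb of the median fragment of their promoter (77.7% in the others), and 39 of the 71 promoters (54.9%, against 53.7% of the others) also listed fragments spread over more than 10 Mb.

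In every library with a member score, the kinase and phosphatase promoters had more called interactions per promoter than the others. The mean over the Basal libraries was 1.28 ± 0.241 (SD, n = 3), and those over the Early, Late and Reactivated libraries were 1.43 ± 0.751, 1.39 ± 0.594 and 1.43 ± 1.61 (n = 4 each). In the other promoters it was 1.08 ± 0.210, 1.14 ± 0.535, 1.28 ± 0.541 and 1.30 ± 1.46. The ratio of members to others ran from 1.05 in Late library 2 to 1.46 in Early library 1, and Reactivated library 1 had 0 member listings. These ratios set gene families side by side in the same libraries, so they are a description with no test. Without Reactivated libraries 1 and 2, the Reactivated mean of the members was 2.83 ± 0.0598 (n = 2, of 1 library set). Beside the groups, the member means overlapped: the lowest and highest libraries of Early (0.451 and 2.24) enclosed all 3 Basal libraries.

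**Figure D1:**
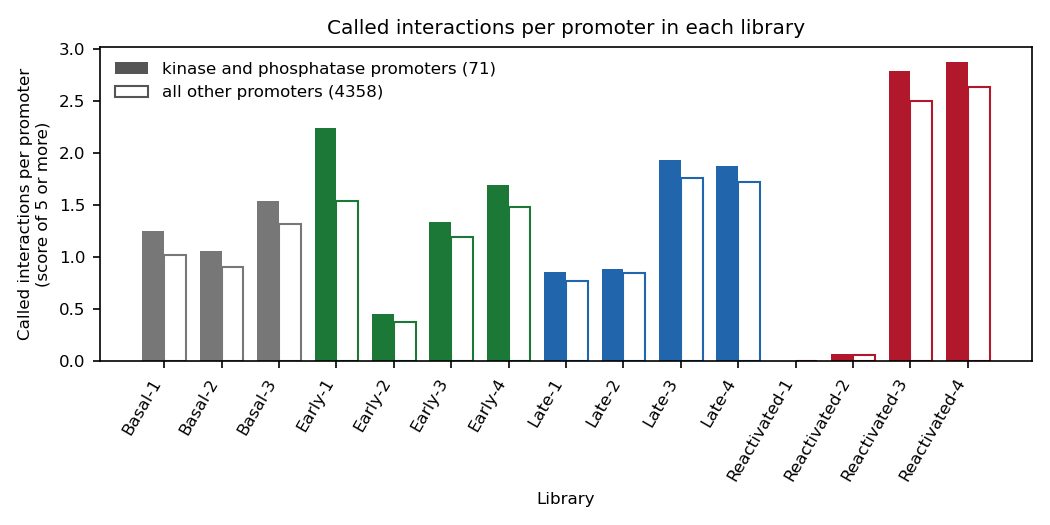
Called interactions per promoter (score of 5 or more, vertical axis) in each of the 15 libraries for the 71 kinase and phosphatase promoters (filled) and the 4358 other promoters (open), coloured by group. The filled bar is higher in 14 libraries, by 1.05 to 1.46 times, and Reactivated library 1 has no filled bar.

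Across groups, 187 of the 651 listings were called in Basal (28.7%, against 27.1% of the other listings), 297 in Early (45.6% against 39.8%), 228 in Late (35.0% against 36.8%) and 213 in Reactivated (32.7% against 33.8%). At least 1 call was present at 57 Basal, 65 Early, 63 Late and 60 Reactivated promoters of the 71 (80.3%, 91.5%, 88.7% and 84.5%, against 71.2%, 81.8%, 86.0% and 82.1% of the others). All 4 groups had a call at 47 of the 71 promoters (66.2%, against 54.2% of the others), but mostly through different fragments. Only 12 listings, of 9 promoters, were themselves called in all 4 groups (1.84% against 1.41%). Those promoters were Camk2d, Dusp23, Map2k2, Map4k4, Ppp1r12a, Ppp1r12c, Ppp1r14c, Ppp4r2 and Ppp6r1. Calls made in 1 group only numbered 51 (Basal), 148 (Early), 105 (Late) and 103 (Reactivated), which was 27.3%, 49.8%, 46.1% and 48.4% of each group's calls (33.1%, 52.1%, 51.3% and 51.5% in the others). Early library 1 alone had more member listings (163) than any other Basal, Early or Late library.

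The 8 MAP kinase promoters had 71 fragments, with none called in all 4 groups. Mapk8 (JNK1, a stress-activated kinase) had the most, 15 fragments, of which 9 were in a single library and none was called in Late. Mapk9 (JNK2) had 14 fragments and no score in any Basal library. Its most recurrent fragment, at chr11:49663787-49668554 and listed also with Cnot6, scored 460 and 308 in Early libraries 3 and 4, 21, 495 and 399 in Late libraries 1, 3 and 4, and 139 and 209 in Reactivated libraries 3 and 4. Early libraries 1 and 2 and Late library 2 had no score there, so that presence followed the libraries as well as the group. Mapk10, the neuron-enriched JNK3, had 12 fragments. Its fragment at chr5:103653413-103657729 scored 32 in Basal library 3, 3 and 18 in Early libraries 1 and 3, and 3848 and 2563 in Late libraries 3 and 4. The scores above 100 came from 1 Late set, and Late libraries 1 and 2 had none.

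Mapk3 (ERK1) had 4 fragments and no score in Early or Reactivated, with a highest score of 107 in Basal library 2. Mapk12 (p38 gamma) and Mapk15 (ERK8), each with 1 fragment, gave large group differences that rest on 1 fragment each, scored in 1 and 3 library sets. The Mapk12 fragment at chr15:89025201-89030006 scored 62 and 40 in Late libraries 3 and 4 and nowhere else. The Mapk15 fragment at chr15:77589374-77592946, listed also with Rbfox2 and Zfp251, scored 633 in Early library 2 and 172, 583 and 649 in Reactivated libraries 2, 3 and 4. Reactivated library 2 had 9 member listings in all, this among them.

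Among the scaffolds and partners of the MAP kinases, Mapk8ip1 (the JNK scaffold JIP1) had 7 fragments. Mapk8ip3, the JNK scaffold and motor adaptor JIP3, had 1, at chr17:24810236-24828457, with scores of 283 in Basal library 1 and 469 and 265 in Early libraries 3 and 4. No Late or Reactivated library scored it.

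Upstream in the cascade, the MAP kinase kinases Map2k1 (MEK1) and Map2k2 (MEK2) had 4 and 8 fragments. The Map2k1 fragment at chr9:64021476-64023999 scored 2 in Early library 3, 1105 and 910 in Late libraries 3 and 4 and 7 and 27 in Reactivated libraries 3 and 4. Of the 7 MAP kinase kinase kinases, Map3k1 (MEKK1) had 17 fragments and Map3k10 (the mixed-lineage kinase MLK2) had 14. The Map3k10 fragment at chr7:28441391-28444345 was mainly a Basal listing and scored 753, 395 and 7 in Basal, 0 in Early and Reactivated and 25 in Late library 2. Map3k12 (the dual leucine zipper kinase DLK, which acts in axon stress signalling) had 6 fragments, and that at chr15:102236303-102248932 was scored in all 4 Late libraries. Its scores there were 35, 37, 3757 and 2595, with 8 in Basal library 3 and none in Early or Reactivated. The groups Late and Early did not overlap there, but the Late sets stood far apart from each other. Map4k4, a MAP kinase kinase kinase kinase, had 25 fragments, the third highest count among the members, and Map4k2 had 3.

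The 8 Dusp promoters held 81 fragments. Dusp23 had 21 fragments, 3 of them among the 12 listings called in all groups, and Dusp16, a JNK and p38 phosphatase, had 12. The Dusp16 fragment at chr6:134743927-134751883 scored 123, 91, 109 and 38 in the Early libraries and 233 and 151 in Late libraries 3 and 4. It was the 1 member listing scored in every Early library and no Basal library, and no Reactivated library scored it. Dusp7, an ERK phosphatase, had 11 fragments, and the one at chr9:106340695-106343502, listed also with Pcbp4, had no Basal score. It scored 127, 305 and 140 in Early libraries 1, 3 and 4, 13, 116 and 70 in Late libraries 1, 3 and 4 and 136 and 163 in Reactivated libraries 3 and 4. Early library 2 and Late library 2 were empty there. The activity-induced ERK phosphatases Dusp5 and Dusp6 had 9 and 6 fragments, with no Dusp6 score in Basal. Dusp7 and Dusp23 had 7 to 10 calls in each of Reactivated libraries 3 and 4, and Dusp23 had 8 in Basal library 3.

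**Figure D2:**
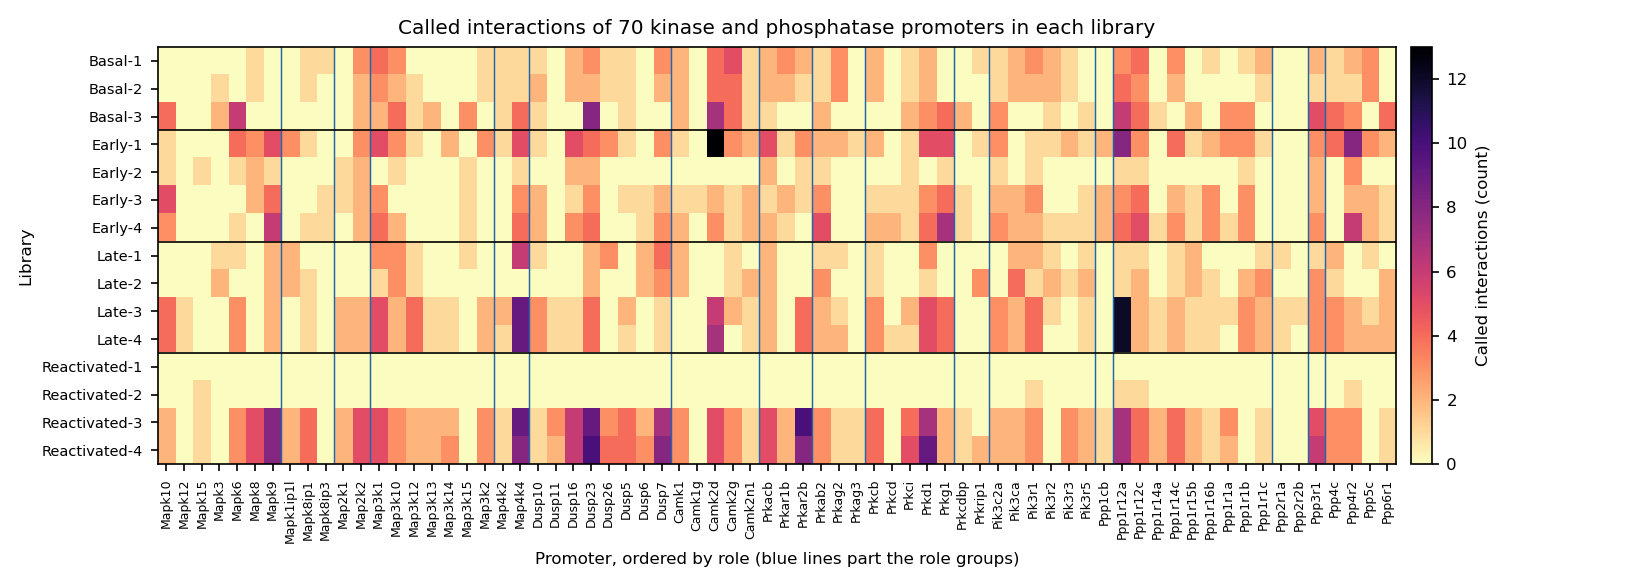
Number of called interactions (colour, 0 to 13) of 70 of the 71 promoters (columns, ordered by role) in each of the 15 libraries (rows, grouped by black lines). The darkest cells are Camk2d in Early library 1 (13) and Ppp1r12a in Late libraries 3 and 4 (12 each), and Reactivated libraries 1 and 2 are nearly empty.

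The 5 Camk promoters had 55 fragments, with their mean calls per promoter highest in Basal when all libraries are counted (2.47 ± 0.306, SD, n = 3) and at 1.70 ± 1.57, 1.25 ± 0.551 and 1.20 ± 1.39 in Early, Late and Reactivated (n = 4 each). Reactivated libraries 3 and 4 had 2.40 each, and Reactivated libraries 1 and 2 had 0. The means of all other promoters were 1.08, 1.14, 1.28 and 1.30 in Basal, Early, Late and Reactivated. Those promoters had 2.49 and 2.63 in Reactivated libraries 3 and 4. By these means the Camk calls were above the others in Basal and Early, about level with them in Late and slightly below them in Reactivated libraries 3 and 4. Camk2d and Camk2g, subunits of the calmodulin-dependent kinase CaMKII, carried most of the 55 fragments, with 27 and 11. Camk2d had 13 calls in Early library 1 and 0 in Early library 2. The Camk2d fragment at chr3:101365952-101366624, far from its other fragments, scored 1584, 951 and 9 in Basal and 63 in Early library 1, and nothing in Late or Reactivated. Camk2g had a fragment at chr14:21573607-21581536 that scored 61, 29 and 31 in Basal, 167, 817 and 433 in Early libraries 1, 3 and 4 and 998 and 1413 in Reactivated libraries 3 and 4. No Late library scored it, which made it the member fragment of 5 or more sets that was absent from Late. The CaMKII inhibitor Camk2n1 had 8 fragments, Camk1 had 8 and Camk1g had 1.

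Among the kinases that second messengers regulate, the PKA subunits had 37 fragments over 3 promoters. Prkacb, a catalytic subunit, had 15 and Prkar2b, a regulatory subunit, had 16, while Prkar1b had 6. The Prkacb fragment at chr3:146485294-146486256, listed also with Ttll7, scored 84 and 50 in Early libraries 3 and 4, 529 and 299 in Late libraries 3 and 4 and 1151 and 1429 in Reactivated libraries 3 and 4, with no Basal score. Prkar2b had 10 and 8 calls in Reactivated libraries 3 and 4 and at most 4 in any other library. The AMPK energy sensor was represented by Prkab2 (14 fragments), Prkag2 (6) and Prkag3 (1). The Prkag3 fragment at chr1:74787475-74793462, shared with Ttll4, scored 39 in Early library 1 and 407 and 389 in Reactivated libraries 3 and 4. Of the protein kinase C, D and G genes, Prkd1 had 23 fragments, Prkg1 (the cyclic GMP-dependent kinase) had 19 and Prkcb had 8. The best recurring Prkg1 fragment, at chr19:31898725-31901796, scored 389 and 181 in Early libraries 3 and 4 and 81 and 69 in Late libraries 3 and 4. No Basal or Reactivated library scored it. The remaining Prk names, Prkrip1 and Prkcdbp, had 5 and 2 fragments.

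The 6 Pik3 promoters, for subunits of the lipid kinases that feed AKT signalling, had 57 fragments. Pik3r1, the p85 alpha regulatory subunit, had 17 and Pik3c2a had 12. Pik3ca (the p110 alpha catalytic subunit) had 9, and its fragment at chr3:32304541-32306610, shared with Zfp639, was scored in 8 libraries of 5 sets. Its scores were 658 and 351 in Basal libraries 1 and 2, 4 in Early library 3, 17, 233 and 124 in Late libraries 1, 3 and 4 and 1329 and 1395 in Reactivated libraries 3 and 4. Pik3r2 (p85 beta) had 4 fragments and no score in Reactivated. Its fragment at chr8:74233252-74239757 scored 657 and 409 in Basal libraries 1 and 2 and 18 and 19 in Late libraries 1 and 2.

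The PP1 regulatory subunits held 90 fragments over 9 promoters, and 4 of the 12 listings called in all groups (2 of Ppp1r12c and 1 each of Ppp1r12a and Ppp1r14c). Ppp1r12a reached 12 calls in each of Late libraries 3 and 4 against 1 in each of Late libraries 1 and 2. Its fragment at chr10:107570461-107573824 scored 157, 125 and 31 in Basal and 1096 and 1496 in Reactivated libraries 3 and 4, and nothing in Early or Late. Ppp1r1b encodes DARPP-32, the PKA-regulated inhibitor of PP1, and had 11 fragments. The one at chr11:97864076-97868633 scored 18 and 35 in Basal libraries 1 and 3, 39 and 28 in Early libraries 3 and 4 and 526 and 427 in Late libraries 3 and 4. No Reactivated library scored any Ppp1r1b fragment. The catalytic subunit Ppp1cb had 4 fragments and no score in Basal or Late. Its fragment at chr5:33089526-33091954 scored 23 in Early library 1 and 299 and 200 in Reactivated libraries 3 and 4.

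PP2A was thinly covered, with 2 fragments at the scaffold subunit Ppp2r1a and 1 at Ppp2r2b. The Ppp2r1a fragment at chr17:21135845-21143347 scored 32 and 25 in Late libraries 3 and 4, and every PP2A score was in Late. Ppp3r1, the regulatory B subunit of calcineurin, had 17 fragments. The fragment at chr11:17084050-17085574, listed also with Pno1 and Sertad2, scored 1787, 1034 and 5 in Basal, 31 in Early library 4 and 162 and 100 in Late libraries 3 and 4. The PP4, PP5 and PP6 genes had 38 fragments, 20 of them in a single library (52.6%). Ppp4r2, a regulatory subunit of PP4, had 19, of which 13 were in a single library, and yet it also held the most recurrent member fragment. Ppp5c, a phosphatase with a chaperone-binding domain, had 5 fragments and no score in Reactivated.

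Recurrence over the 9 library sets was low in the members as in the rest, with 12 of 651 listings scored in 5 or more sets (1.84% against 1.22% of the other listings). The Ppp4r2 fragment at chr6:100773714-100781026 was scored in 12 libraries and 8 sets and was listed with no other promoter. It scored 1061, 654 and 10 in Basal, 348, 862, 1168 and 662 in Early, 897 and 638 in Late libraries 3 and 4 and 272, 3465 and 4287 in Reactivated libraries 2, 3 and 4. Every Early library and every Basal library scored it, and Late libraries 1 and 2 did not. Ppp1r12c, a further myosin-phosphatase subunit of PP1, had 3 of the 12 recurrent listings among only 7 fragments, all within 0.600 Mb. The one at chr7:4607993-4613755, listed also with Brsk1, Hspbp1 and Tmem86b, was scored in 12 libraries and 7 sets. It scored 219, 105 and 19 in Basal, 244, 447 and 217 in Early libraries 1, 3 and 4, 41, 61, 204 and 152 in Late and 3484 and 3686 in Reactivated libraries 3 and 4. The neighbouring fragment at chr7:4623990-4640957 was the 1 fragment shared by a pair of members, Ppp1r12c and Ppp6r1, a regulatory subunit of PP6. Its 4 Early values (244, 0, 447 and 217) were the same as those of the previous fragment. Listed with both promoters, this shared fragment makes up 2 of the 12 recurrent listings. Equal scores of 50 or more in different fragments of a promoter made up 0.872% of such member values and 0.696% of those of the other promoters. The third Ppp1r12c fragment, at chr7:4456453-4467048, was scored in 9 libraries and listed also with Crebzf.

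The catalytic subunit Ppp4c had a fragment at chr7:134168163-134171043, shared with Cd2bp2 and Mvp, with scores in every library of Basal (203, 147 and 19) and Late (193, 233, 205 and 188). Reactivated libraries 3 and 4 scored it 1262 and 1646, and all 4 Early libraries lacked it. The 4 Late scores were close to each other, also between the library sets. The other recurrent listings belonged to Camk2g and Dusp7 (above), Dusp10, Dusp23, Pik3ca and Map3k10. Within library sets the libraries differed in the level of their scores. Over the listings scored in both libraries, the median ratio was 1.71 for Basal library 1 to 2 (71 listings, quartiles 1.55 and 1.89), 1.76 for Early 3 to 4 (80, quartiles 1.51 and 2.01) and 1.46 for Late 3 to 4 (132, quartiles 1.31 and 1.71). It was 0.875 for Reactivated 3 to 4 (200, quartiles 0.767 and 1.04) and 0.85 for Late 1 to 2, where 25 member listings were scored in both.

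**Figure D3:**
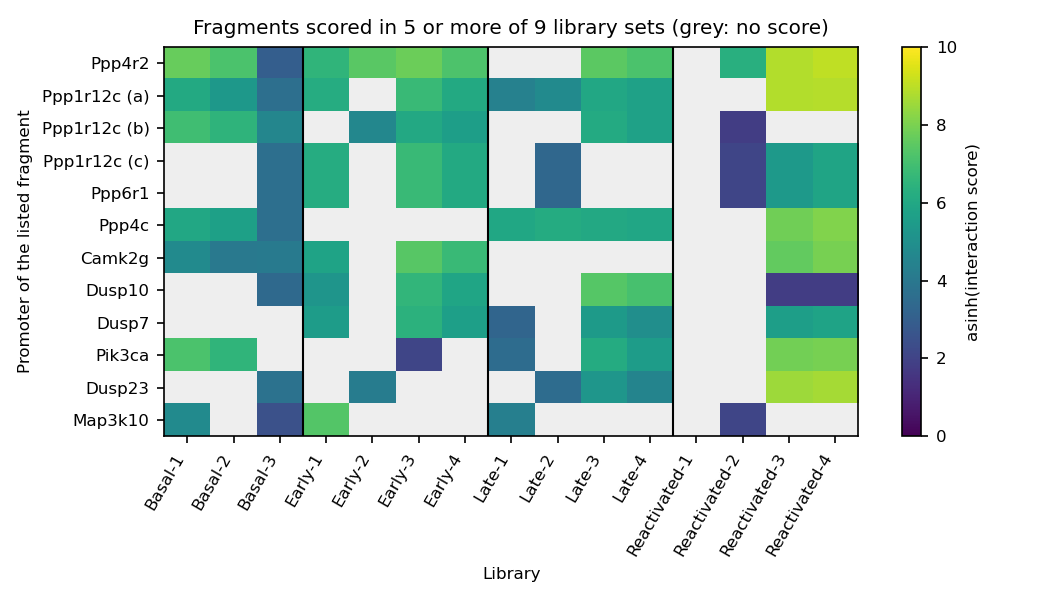
Score (colour, asinh scale, 0 to 10) of the 12 member listings found in 5 or more of the 9 library sets, by library (columns, groups parted by black lines), with grey for no score. The letters a, b and c part the 3 Ppp1r12c fragments, and c is the fragment shared with Ppp6r1. Ppp4c is grey in all 4 Early libraries and Camk2g in all 4 Late libraries.

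Groups were compared on the asinh score, an inverse hyperbolic sine that behaves like a logarithm at high scores and is 0 where no score is listed, averaged over the fragments of a promoter. Differences are given on that scale, and tests used limma over all 4429 promoters or all 36353 listings with Benjamini-Hochberg adjustment. In all 6 comparisons, 0 of 71 member promoters and 0 of 651 member listings reached an adjusted p under 0.05. Among all listings the share was 0% in each comparison. The comparisons share groups, so their values are not independent of each other.

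From Basal to Early the members were nearly balanced, with 36 promoters higher and 31 lower and a median difference of 0.03 (0.00 over all promoters). Over all promoters, 0% passed. An unadjusted p under 0.05 was reached by 4 members (Ppp1cb, Pik3r2, Prkag2 and Mapk3, 5.63%, against 5.83% of all promoters) and by 66 member listings (10.1% against 10.6%). The largest positive differences were at Ppp1cb (0 to 1.97 ± 1.34, SD, difference SE 0.646, limma adjusted p = 0.405), Mapk15 (1.79, SE 1.69) and Mapk9 (1.40, SE 0.847). Ppp1cb was scored in 3 of 4 Early libraries, Mapk15 in 1 and Mapk9 in 4, against 0 of 3 Basal libraries each. The largest negative differences were at Pik3r2 (2.59 ± 1.32 to 0.547 ± 0.659, SE 0.684, adjusted p = 0.432), Prkag2 (-1.86, SE 0.83) and Camk2g (-1.31, SE 0.709). Every Early library lay above every Basal library at 1 member, Mapk9 (3.07% of all promoters), and every Basal library above every Early library at 1, Prkci (3.77% of all). Among listings, 1 member fragment was scored in every Early and no Basal library (0.0715% of all), that of Dusp16. The reverse held for 5 (0.875% of all), of Map3k1, Map3k10, Map4k2, Ppp1r12a and Ppp4c. Leaving out Basal library 3, whose scores were low, 1 member promoter passed and was lower in Early, Pik3r2 (difference -2.80), with 1.49% of all promoters lower. Then 25 member listings passed and were lower in Early (4.08% of all listings). The Basal libraries that remain, 1 and 2, are 1 set sharing 91.3% of the fragments of the smaller list. Their spread is that of near-identical lists.

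From Early to Late, 35 members were higher and 36 lower, with a median difference of 0.00 (0.06 over all promoters, of which 0.0903% passed). An unadjusted p under 0.05 was reached by 7 members (9.86% against 6.95% of all promoters) and 90 listings (13.8% against 15.1%). The cascade kinases Map3k12 (0.242 ± 0.316 to 2.73 ± 2.33, SE 0.946, limma adjusted p = 0.513) and Mapk12 (2.30, SE 0.818) and the PP2A scaffold Ppp2r1a (1.36, SE 0.431, adjusted p = 0.486) had the largest positive differences. Mapk8ip3 (-3.28, SE 1.47), Ppp1cb (-1.97, SE 0.598, adjusted p = 0.419) and Mapk15 (-1.79, SE 1.57) had the largest negative differences, each at 0 in all 4 Late libraries. Map3k12 was the 1 member with every Late library above every Early library (2.62% of all promoters). Ppp4r2 was the 1 member with every Early library above every Late library (1.29% of all). The fragments of Map3k12 and Ppp4c described above were scored in every Late and no Early library (2 member listings, 0.239% of all), and 0 in every Early and no Late library (0.044% of all). Without Early library 2, Ppp1cb passed and was lower in Late (difference -2.63, limma adjusted p = 0.0476), as 0.136% of all promoters were. The library left out was the Early library with no Ppp1cb score, and Early libraries 1, 3 and 4 stood at 2.26, 2.90 and 2.72. Early libraries 3 and 4 are 1 set sharing 82.0% of the fragments of the smaller list, so this pass is no independent support.

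From Late to Reactivated, 39 members were higher and 30 lower, with a median difference of 0.12 (0.18 over all promoters, of which 0.0677% passed). The balance turned with the scaling, to 20 higher and 49 lower (median -0.18) after quantile normalization and 31 and 38 (median -0.09) with scores divided by the library's sum, as it did over all promoters (medians -0.18 and -0.09). An unadjusted p under 0.05 was reached by 5 members (Mapk12, Mapk15, Ppp1r14a, Ppp2r1a and Prkag3, 7.04% against 13.8% of all promoters) and 160 listings (24.6% against 26.2%). Mapk15 (0 to 5.02 ± 3.40, SE 1.57, limma adjusted p = 0.278), Prkag3 (3.34, SE 1.35) and Prkcdbp (1.80, SE 1.05) had the largest positive differences. Mapk12 (-2.30, SE 0.818), Map3k12 (-1.61, SE 0.946) and Ppp2r1a (-1.36, SE 0.431) had the largest negative differences, the genes that had the largest positive differences from Early to Late. Both comparisons share the Late libraries. Every Late library was above every Reactivated library at 1 member, Pik3r2 (2.69% of all promoters), and the reverse held for 0 members (0.0677% of all). Listings scored in every Late and no Reactivated library numbered 1 (Map3k12, 0.311% of all), and the reverse 0 (0.00275% of all).

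These counts depended on Reactivated libraries 1 and 2, which were nearly empty. Without them, 55 members were higher and 14 lower from Late to Reactivated (median 1.18, and 1.10 over all promoters), and 31 member promoters passed, 30 of them higher in Reactivated (42.4% of all promoters were called higher), and 157 of the member listings were higher (25% of all listings). Mapk15 then stood at 7.11 (limma adjusted p = 0.00247) and Prkag3 at 6.68. The Reactivated libraries that remain, 3 and 4, are 1 set sharing 95.7% of the fragments of the smaller list, so their spread is that of near-identical lists. Without Reactivated library 1 alone, Mapk15 passed (6.69, adjusted p = 0.0351), 1 member called higher beside 3.21% of all promoters. In that same setting, without Reactivated library 1, 82 member listings were called higher (12.6%, against 13.4% of all listings).

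Late against Basal had 37 members higher and 30 lower (median difference 0.02, and 0.15 over all promoters, of which 0.0677% passed). An unadjusted p under 0.05 was reached by 5 members (Camk2g, Map3k12, Mapk12, Pik3r2 and Ppp2r1a, 7.04% against 8.2%) and 78 listings (12% against 12.9%). Mapk12 (2.30, SE 0.883) and Map3k12 (2.18, SE 1.02) were highest, and Mapk8ip3 (-2.11, SE 1.59) and Ppp5c (-1.97, SE 1.04) lowest. Mapk9 and Ppp1r15b, a PP1 subunit that directs dephosphorylation of a translation initiation factor, had every Late library above every Basal library (2 members, 5.37% of all promoters). Camk1 and Ppp1r12c had the reverse (2 members, 3.93% of all). Listings scored in every Late and no Basal library numbered 0 (0.237% of all), and the reverse 4 (0.869% of all), of Camk2d, Camk2g, Dusp23 and Ppp1r12a. Without Basal library 3, 0 member promoters (1.42% of all) and 26 member listings (4.34% of all) passed and were lower in Late. Basal libraries 1 and 2, which remain there, are of 1 set.

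Reactivated against Basal had 46 members higher and 20 lower, with a median of 0.21 (0.31 over all promoters, of which 0.0226% passed). This turned to 20 higher and 46 lower (median -0.19, and -0.05 over all) after quantile normalization and to 25 and 41 (median -0.06, and 0.00 over all) with scores divided by the library's sum. An unadjusted p under 0.05 was reached by 7 members (9.86% against 11.2%) and 134 listings (20.6% against 20.3%). Mapk15 (5.02, SE 1.69) and Prkag3 (3.34, SE 1.46) were highest. Ppp5c was at 2.95 ± 2.56 in Basal and 0 in every Reactivated library (SE 1.04, limma adjusted p = 0.423), and Pik3r2 was at 2.59 ± 1.32 in Basal and 0 in Reactivated (SE 0.684, adjusted p = 0.153), so neither passed. Pik3r2 was the 1 member with every Basal library above every Reactivated library (2.64% of all promoters), and 0 had the reverse (0.0452% of all). Among listings, 6 were scored in every Basal and no Reactivated library (0.985% of all), with those of Camk2d, Ppp3r1 and Map3k10 the largest by difference, and 0 had the reverse (0% of all). Without Basal library 3, Ppp5c (-4.42) and Pik3r2 (-3.35) passed and were lower in Reactivated (2 members, 1.36% of all promoters). Then 31 member listings passed and were lower (4.58% of all). These passes rest on Basal libraries 1 and 2, of 1 set, and Ppp5c had no score in Basal library 3. Without Reactivated libraries 1 and 2, 57 members were higher and 9 lower (median 1.25, and 1.23 over all), and 30 members were called higher (44.2% of all promoters) and 153 member listings (24.5% of all).

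Reactivated against Early had 45 members higher and 22 lower, with a median of 0.25 (0.26 over all promoters, of which 0% passed). After quantile normalization it was 19 higher and 48 lower (median -0.17, and -0.12 over all), and with scores divided by the library's sum 30 and 37. An unadjusted p under 0.05 was reached by 5 members (Dusp11, Map3k15, Mapk8ip3, Ppp1r14a and Ppp1r1b, 7.04% against 11.3%) and 129 listings (19.8% against 21.3%). Mapk15 (3.23, SE 1.57) and Prkag3 (2.25, SE 1.35) were highest, and Mapk8ip3 (-3.28, SE 1.47) and Ppp5c (-1.85, SE 0.966) lowest. Ppp1r1b was the 1 member with every Early library above every Reactivated library (0.926% of all promoters), and 0 had the reverse (0.0226% of all). The Dusp16 fragment was the 1 listing scored in every Early and no Reactivated library (0.0743% of all), and 0 had the reverse (0.00275% of all). Without Reactivated libraries 1 and 2, 54 members were higher and 13 lower (median 1.20, and 1.19 over all), and 30 members were called higher (44.6% of all promoters) and 155 member listings (25.1% of all).

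**Figure D4:**
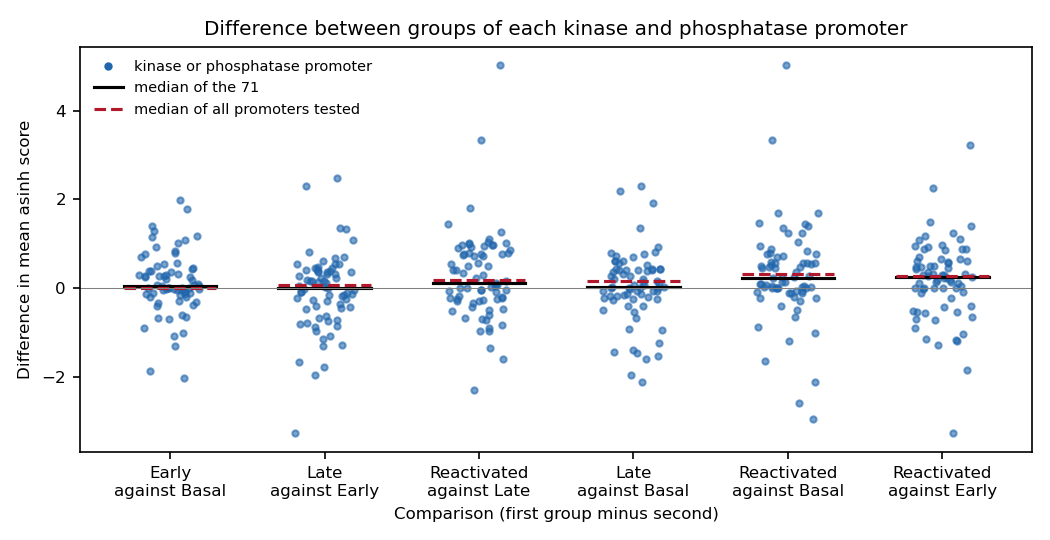
Difference in mean asinh score of each of the 71 promoters (points, spread sideways at random) in the 6 comparisons, with the median of the 71 (black) and of all promoters tested (dashed red). The points scatter around 0 in each comparison, the medians of the 3 comparisons with Reactivated turn sign under quantile or library-sum scaling, and the highest is Mapk15 at 5.02 in Reactivated against Late and against Basal.

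Partner genes of the same pathways, listed by name outside the rule were counted the same way. Of 68 Ras and ERK pathway partners, 31 had listings (240 fragments in all, with Frs2 at 32 and Shc3 at 22). Of 51 partners of PI3K, AKT and mTOR, 23 were present, led by Phlpp1 with 53 fragments and Eif4ebp1 with 20. The lists of calcium, calcineurin and cAMP signalling (21 of 48 present, led by Akap7 and Dclk1 with 19 and 16) and of other protein phosphatases and their partners (20 of 67, led by Ppm1l and Ptprk with 32 and 24) were alike in size. In each of the 4 lists, 0 partners passed in any of the 6 comparisons. Single-library listings made up 30.0% to 32.8% of each list, near the 33.0% of the members.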

How the data were processed

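Promoter-capture Hi-C interactions were read from 1 table of all 15 libraries, in which each row pairs a promoter with a fragment. Its values are interaction scores as deposited by the authors, on genome build mm9 per the submitters' processing notes. For the scoring program, its normalization and the read depth, nothing is given in the sources used here, so no interval that needs depth was computed, and empty cells were taken as no score (0). Groups were taken from the sample titles, because the treatment labels gave a collection day that rose with the order of the samples and no recall for any sample, in conflict with the protocol. Members were matched by gene name. The members, gene lists and tests were chosen with earlier results of these data known.

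Scores were transformed as asinh(score), averaged over the fragments of each promoter, and compared with limma 3.58.1 (variance trend, robust empirical Bayes with statmod 1.5.0, R 4.3.3) over all promoters or listings, with adjusted p under 0.05. Libraries of a group sharing at least 40% of the smaller fragment list were joined as a set. Tallies, motif searches and plots used Python 3.11.15 with pandas 2.3.3, numpy 2.4.6 and matplotlib 3.10.9. The model was also run on simulated data, in which each library was shuffled separately over promoters and some promoters were shifted in Late. The shuffling removed the likeness of libraries within a set, so the simulation cannot give the error rate for these data.

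Named genes were, per role, the 2 members with the most fragments and the 2 with the most recurrent fragment, per comparison the 2 or 3 with the largest differences in each direction, up to 3 fragments scored throughout 1 group and absent from the other, and the 2 leading genes of each partner list. The remaining members and fragments named were chosen after their values were seen, for their known role or as the members of a small count. Alternatives covered the scale, normalization, filters, score threshold, shared fragments, library sets, the replicate block and leaving out libraries. The values of 1 member are not reported here, though it is part of all counts.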

Additional observations from a re-analysis of the deposited data

Results flagged for a closer look

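Among 33 groups of 4 libraries examined for the promoters named by comparison, 3 had a library far from the others by Dixon's test. The usual chance rate of about 1 in 20 assumes normal values and does not hold for scores filled in with 0. A ratio of 1 is fixed wherever 1 library has a score and the others are at 0. All 3 lay in Early, which has 3 library sets. Late and Reactivated have 2 sets each, of paired libraries, so a library on its own is less likely there. For Mapk15 the gap of Early library 2 (7.14 on the asinh scale) to the other libraries, all at 0, was the whole range (ratio 1). For Prkag3 the same ratio of 1 came from Early library 1 (4.36), with the others at 0. For Ppp5c, Early library 2 stood at 0 and the others between 2.26 and 2.65, a ratio of 0.853. The Mapk15 and Prkag3 promoters each have 1 fragment, so their mean is the score of that fragment.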

How the results depend on the processing

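For the 44 named promoters and fragments, 1031 of 1071 values kept direction and side of the threshold, 37 passed only under an alternative, 3 moved to 0 (Mapk15 without Early library 2 in a pair of comparisons, Mapk8ip3 without Basal library 1) and 0 reversed. They were picked from the same data for large differences, or as fragments scored throughout 1 group and absent from the other. Reversals were therefore unlikely in advance. None passed in the asinh fit, so none could cease to pass, and the tally is no measure of robustness. The counts of passing members were 0 under the asinh fit, and the alternatives that moved them are given in the order in which the comparisons appear above, from Early minus Basal (the first) to Reactivated minus Early (the last). Without Reactivated libraries 1 and 2, passing promoters numbered 31 for Reactivated against either Late or Basal and 30 for Reactivated against Early, beside 43.8%, 45.6% and 44.9% of all promoters, and passing member listings 2, 1, 158, 1, 156 and 155, beside 0.539%, 0.177%, 25.3%, 0.653%, 25.1% and 25.3% of all listings. Without a variance trend, passing member listings numbered 1, 1, 1, 2 and 1 in the first 5 comparisons, beside 0.391%, 0.157%, 0.162%, 0.553% and 0.402% of all. Leaving out each library in turn, promoters ranged from 0 to 1 in the first 3 comparisons, 0 to 0 for Late against Basal, 0 to 2 for Reactivated against Basal and 0 to 0 in the last. Listings ranged from 0 to 25, 0 to 0, 0 to 83, 0 to 26, 0 to 67 and 0 to 76, with the high ends without Basal library 3 or without Reactivated library 1 or 2. The shares of all listings at those high ends were 4.08%, 13.5%, 4.34%, 11.5% and 12.7 to 12.9%, in the same order without the second comparison. Log2, quantile or per-million scaling, library sets as means, filters and single-promoter fragments left every count at 0, as did the fit with the replicate number as a block (0 members passing). The cause of these changes was not tested.

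Whether replicate numbers pair the libraries was not settled. Over 21 same-numbered pairs the correlation of deviations ran from -0.0678 to 0.0667. Of 15 libraries, 8 correlated best with their own number, and no chance rate was worked out for that count. In both Late and Reactivated, the sets join library 1 with 2 and library 3 with 4, so number and set are partly confounded there. Called interactions per member promoter ranged over left-out libraries from 1.15 to 1.39 in Basal, 1.16 to 1.76 in Early, 1.21 to 1.56 in Late and 0.953 to 1.91 in Reactivated. With fragments listed with 1 promoter only, the Basal value was 0.953 and the share of listings in a single library 37.9%, beside 33.0% of all member listings. Separately, over all member listings, 62.4% came from 1 set when library sets replace libraries. Depth is unknown, 84.2% of member cells hold no score, and a missing score does not show an absent contact.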
